A study of Mus musculus with 6 samples.

Results

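The unfolded protein response was followed in lung cancer cells that had grown as tumours with or without bone marrow-derived mesenchymal stem cells (BMSCs). The genes described are 10 members of the response named by symbol, Hspa5, Hsp90b1, Calr, Pdia4, Sdf2l1, Dnajb9, Herpud1, Atf6, Ern1 and Xbp1, out of 18182 genes in the tables. All 10 were found under their symbols, and all 10 passed the filter on low counts. In LLC cells from the co-injected tumours, 8 of the 10 were lower than in LLC cells that had been injected alone. Of all 13353 tested genes, 31.3% were lower. The members were chosen with earlier results of these data known, so that their counts here and below are a description and no test. Among the 8, Ern1 overlapped between the groups and lost its call in 7 of 18 alternative analyses, and Calr lost its call in 1. The transcripts of the master chaperone Hspa5, its cochaperone Dnajb9 and the degradation factor Herpud1 fell by more than a factor of 2, while the foldase Pdia4 and the chaperone partner Sdf2l1 did not pass the test in either direction.

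RNA was sequenced from Lewis lung carcinoma (LLC) cells, a lung cancer line of C57BL/6 mice, that carried red fluorescent protein (LLC-RFP). C57BL/6 mice of wild type genotype received LLC-RFP under the skin either alone (the LLC group, 3 libraries) or mixed with BMSCs (the LLC+BMSC group, 3 libraries), and red cells were sorted from the primary tumours by flow cytometry. Cultured cells and the BMSCs themselves were not analysed here, and the sources used here do not say whether 1 tumour or several gave each library, so that the p-values measure the spread between these libraries, which may be technical. The sort on red fluorescence was the step that parted the cancer cells from the BMSCs and from cells of the host.

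Proteins that are secreted or sit in membranes fold inside the endoplasmic reticulum (ER). When unfolded protein builds up there, the sensors IRE1 (gene Ern1), ATF6 and PERK (gene Eif2ak3) are released from the chaperone BiP (gene Hspa5): IRE1 cuts a short intron out of the Xbp1 mRNA so that an active transcription factor is made, ATF6 is cleaved in the Golgi into another, and PERK slows translation and raises ATF4. The factors switch on chaperones, foldases and ER-associated degradation (ERAD), and in tumours the response is known for its part in survival under low oxygen and scarce nutrients.

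ATF6 and XBP1 act through short DNA elements, and those found in the upstream sequence of the 10 genes are shown because they are the known entry point of the response at these genes. A set of 3 elements was searched on both strands from 250 bases before to 50 bases after each gene's start in the RefSeq promoters of build GRCm38.p6, namely the ER stress response element ERSE (CCAAT and CCACG with 9 bases between them), ERSE-II (ATTGG and CCACG with 1 base between them) and the unfolded protein response element UPRE (TGACGTGG), none of which lies within another. Of the 9 members with a promoter entry (all but Atf6), Hspa5, Hsp90b1 and Calr held an ERSE and Herpud1 an ERSE-II. Among all 32851 promoter entries, of which a gene may have several, 0.119% held an ERSE and 0.0365% an ERSE-II. The elements are known from genes of this response, so that finding them at members is a description and no test. The UPRE was found in none of the 9 and in 0.676% of all promoters. The stretches below are written 5′ to 3′ in the direction of transcription, with the element in capitals, and a capital run that begins with CGTGG is an ERSE on the opposite strand.
Hspa5: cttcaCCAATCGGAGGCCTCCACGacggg
Hsp90b1: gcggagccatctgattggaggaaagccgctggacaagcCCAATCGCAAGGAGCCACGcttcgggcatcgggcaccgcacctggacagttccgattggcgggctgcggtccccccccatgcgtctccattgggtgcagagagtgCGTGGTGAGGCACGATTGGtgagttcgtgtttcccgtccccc
Calr: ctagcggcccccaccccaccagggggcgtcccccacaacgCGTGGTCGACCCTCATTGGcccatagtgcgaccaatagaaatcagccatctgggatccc
Herpud1: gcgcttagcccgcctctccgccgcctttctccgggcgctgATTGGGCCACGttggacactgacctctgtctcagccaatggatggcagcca
The Hspa5 stretch lies at chr2:34772020-34772048 on the plus strand, with its ERSE 65 to 47 bases before the RefSeq start. GENCODE M21 also annotates a longer Hspa5 transcript that begins further upstream, so that this stretch lies inside the gene as placed below. The Hsp90b1 stretch lies at chr10:86705510-86705694 on the minus strand and holds a pair of ERSE, 212 to 194 and 107 to 89 bases before the start. The Calr stretch lies at chr8:84847035-84847133 on the minus strand, with its ERSE 162 to 144 bases before the start. The Herpud1 stretch lies at chr8:94386337-94386427 on the plus strand, with its ERSE-II 52 to 42 bases before the start. A match shows only that these letters are in the window, and a missing match only that they are not.

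Levels are given as FPKM, fragments scaled by transcript length and by the library's total, which allows one gene to be set beside another. FPKM does not remove trends over transcript length that differ between libraries. Changes are log2 fold changes of LLC+BMSC against LLC from edgeR's quasi-likelihood test on the counts, in which 13353 genes were tested and a call is an adjusted p under 0.05. Beside the 8 of 10 members that were lower, 31.3% of all tested genes were lower, and beside the 0 of 10 that were higher, 31.5% of all tested genes were higher. The count of 0 was the same at an unadjusted p under 0.05, with DESeq2 and with limma on log2(FPKM + 1), and it was 1, Sdf2l1, with the libraries' trends over transcript length (or length and GC content) removed and without LLC replicate 3. The median log2 fold change was -0.76 over the 10 members and 0.01 over all tested genes. A call with a log2 fold change of -1 or less was made for 3 members, and for 7.17% of the tested genes. The FPKM values of all LLC+BMSC libraries lay under those of all LLC libraries for 7 members, and for 33.7% of the tested genes. The 10 genes together took 0.558%, 0.569% and 0.559% of the counted fragments in the LLC libraries and 0.349%, 0.357% and 0.366% in the LLC+BMSC libraries, so that the groups did not overlap. Hspa5 alone took 0.228%, 0.242% and 0.236% in the LLC libraries and 0.103%, 0.108% and 0.111% in the LLC+BMSC libraries. The sum thus leans on this gene.

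**Figure D1:**
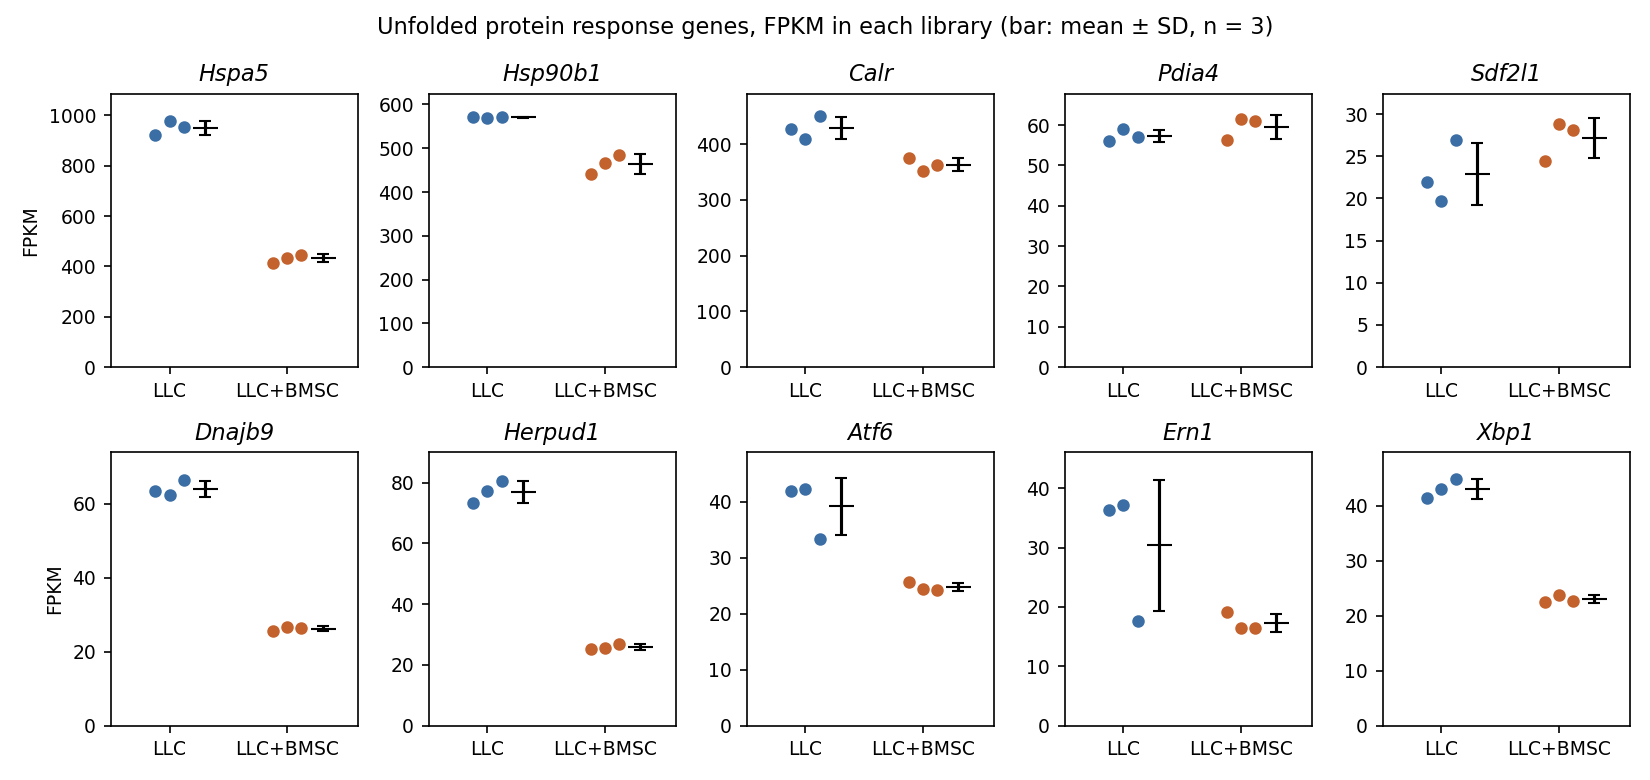
FPKM of the 10 genes, 1 panel a gene with its own axis from 0; each point is a library (blue LLC, orange LLC+BMSC) and the bar beside it the mean ± SD of 3 libraries. The groups are apart for 7 genes and overlap for Pdia4, Sdf2l1 and Ern1, and in the Ern1 panel LLC replicate 3, at 17.63, sits among the LLC+BMSC libraries.

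Hspa5 codes for BiP, the Hsp70-type chaperone of the ER that also holds the sensors inactive (chromosome 2, 34771970 to 34777547, plus strand; positions here and below are of GENCODE M21 on GRCm38). It was the most abundant of the 10 in the LLC group, at 922.88, 977.13 and 952.54 FPKM, and stood at 415.44, 434.37 and 447.24 FPKM in the LLC+BMSC group. Every LLC+BMSC library was far below any LLC library, and the means were 951 ± 27.2 and 432 ± 16.0 FPKM (SD, n = 3). The log2 fold change was -1.16 (SE 0.0549, 95% interval -1.28 to -1.03, edgeR adjusted p = 2.48e-06). The tables divide Hspa5 between a pair of RefSeq transcripts. The shorter one, NM_001163434, held 90.1% ± 0.697 of the gene's FPKM in LLC and 85.7% ± 1.40 in LLC+BMSC (SD, n = 3; no overlap; exact two-sided permutation p = 0.1, the smallest that 3 against 3 libraries allow). Both transcripts were lower in LLC+BMSC, NM_001163434 at 370 against 857 FPKM and NM_022310 at 62.0 against 94.3 FPKM.

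Hsp90b1 codes for GRP94, the Hsp90-type chaperone of the ER (chromosome 10, 86690209 to 86705509, minus strand). Its level was 572.11, 569.81 and 570.31 FPKM in LLC and 440.20, 466.66 and 484.53 FPKM in LLC+BMSC. The LLC libraries were almost equal and the highest LLC+BMSC library stayed under all of them, but the difference was much smaller than for Hspa5, with a log2 fold change of -0.32 (SE 0.0548, 95% interval -0.45 to -0.19, edgeR adjusted p = 0.00144). Because the 2 chaperones moved by different amounts, the order between them was not kept: the ratio of Hspa5 to Hsp90b1 FPKM was 1.61, 1.71 and 1.67 in the LLC libraries and 0.944, 0.931 and 0.923 in the LLC+BMSC libraries. Exons of Hsp90b1 overlap the pseudogene 1810014B01Rik on the other strand, and whether the counting used the strand is not given in the sources used here; that pseudogene had 227 to 534 counts a library and Hsp90b1 at least 51307.

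Calr codes for calreticulin, a lectin chaperone that binds sugar-bearing proteins and calcium in the ER (chromosome 8, 84841850 to 84846934, minus strand). It stood at 427.30, 410.20 and 449.78 FPKM in LLC and at 375.20, 352.06 and 363.46 FPKM in LLC+BMSC. The groups were apart by a narrow margin, and the log2 fold change was -0.26 (SE 0.0615, 95% interval -0.40 to -0.12, edgeR adjusted p = 0.00705). It was -0.14 (edgeR adjusted p = 0.0143) once each library's trend over transcript length was removed, and the call was lost when the closest libraries of each group were summed (edgeR adjusted p = 0.0691).

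Pdia4 codes for a protein disulfide isomerase, which forms and reshuffles the disulfide bonds of folding proteins (chromosome 6, 47796141 to 47813430, minus strand). Its level was 56.10, 58.94 and 56.94 FPKM in LLC and 56.24, 61.52 and 60.99 FPKM in LLC+BMSC. These ranges overlapped, and the log2 fold change of 0.03 had a 95% interval of -0.10 to 0.17 (edgeR adjusted p = 0.623). Against this level in both groups the other genes can be set within a library. The ratio of Herpud1 to Pdia4 FPKM went from 1.30 to 1.41 in the LLC libraries down to 0.414 to 0.450 in the LLC+BMSC libraries, that of Dnajb9 to Pdia4 from 1.06 to 1.17 down to 0.435 to 0.453, and that of Hspa5 to Pdia4 from 16.5 to 16.7 down to 7.06 to 7.39. None of these ratios depends on the scaling between libraries. As Pdia4 was about level between the groups, they restate the changes of Herpud1, Dnajb9 and Hspa5 and are no separate support for them.

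Sdf2l1 codes for a small ER protein that works with BiP and its cochaperones to keep client proteins from clumping (chromosome 16, 17130138 to 17132383, minus strand). It was the least abundant of the 10 in LLC, at 21.94, 19.73 and 26.96 FPKM, and stood at 24.49, 28.89 and 28.14 FPKM in LLC+BMSC. The groups overlapped through LLC replicate 3, and the log2 fold change was 0.22 (SE 0.121, 95% interval -0.06 to 0.50, edgeR adjusted p = 0.14). Its transcript is short, at 1118 bases. When the tested genes were divided into 5 classes by length, the class of up to 1585 bases lay 0.31 above the mean of the 6 libraries in LLC replicate 3 and between -0.19 and -0.09 in the LLC+BMSC libraries (medians, log2 scale). The log2 fold change became 0.37 without LLC replicate 3 (edgeR adjusted p = 0.00398) and 0.50 with the trend over length removed (edgeR adjusted p = 0.000132), so that Sdf2l1 was then called higher.

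Dnajb9 codes for ERdj4, a cochaperone that stimulates BiP and holds IRE1 in its resting state (chromosome 12, 44205559 to 44210326, minus strand). Its level was 63.47, 62.33 and 66.51 FPKM in LLC and 25.49, 26.82 and 26.55 FPKM in LLC+BMSC. The groups lay far apart, with CVs of 3.37% and 2.67%, and the log2 fold change was -1.31 (SE 0.0583, 95% interval -1.44 to -1.17, edgeR adjusted p = 1.84e-06).

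Herpud1 codes for a membrane protein of the ERAD complex, which moves misfolded proteins out of the ER to the proteasome (chromosome 8, 94386438 to 94395377, plus strand). It stood at 73.20, 77.09 and 80.56 FPKM in LLC and at 25.30, 25.46 and 26.95 FPKM in LLC+BMSC. This was the steepest change of the 10, with a mean level 66.3% lower and a log2 fold change of -1.59 (SE 0.0637, 95% interval -1.74 to -1.44, edgeR adjusted p = 1.04e-06). In LLC, Herpud1 was above Dnajb9 and Pdia4 in every library, and in LLC+BMSC it lay in the same range as Dnajb9 and far under Pdia4.

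Atf6 codes for the ER membrane sensor whose cleaved part enters the nucleus (chromosome 1, 170704674 to 170867771, minus strand). Its level was 41.94, 42.25 and 33.34 FPKM in LLC and 25.57, 24.32 and 24.31 FPKM in LLC+BMSC. LLC replicate 3 was the lowest of its group and still above all LLC+BMSC libraries, and the log2 fold change was -0.69 (SE 0.0953, 95% interval -0.91 to -0.47, edgeR adjusted p = 0.000503). The transcript is long, at 7492 bases, and the class of genes of 4850 bases and more had a median log2 deviation of -0.37 in LLC replicate 3. With the trend over length removed the log2 fold change was -0.96 (edgeR adjusted p = 1.38e-07).

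Ern1 codes for IRE1, the sensor with a kinase and an RNA-cutting domain (chromosome 11, 106394650 to 106487852, minus strand). Its level was 36.25, 37.19 and 17.63 FPKM in LLC and 19.07, 16.48 and 16.42 FPKM in LLC+BMSC. LLC replicates 1 and 2 were about level with each other and well above the LLC+BMSC libraries, but LLC replicate 3 lay below the highest of these. The log2 fold change was -0.83 with the widest error of the 10 (SE 0.254, 95% interval -1.42 to -0.24, edgeR adjusted p = 0.0221). It was -1.10 without LLC replicate 3 (edgeR adjusted p = 2.88e-06), and the call was lost when any other single library was left out (edgeR adjusted p from 0.0522 to 0.0705). Of the other members, Atf6 was also lowest of its group in LLC replicate 3, while Xbp1, Herpud1 and Dnajb9 were highest there. With the length trend removed, the Ern1 log2 fold change was -0.89 (edgeR adjusted p = 0.00585).

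Xbp1 codes for the transcription factor of the IRE1 branch (chromosome 11, 5520659 to 5525893, plus strand). It stood at 41.40, 42.98 and 44.97 FPKM in LLC and at 22.58, 23.86 and 22.61 FPKM in LLC+BMSC. The groups were well apart, and the log2 fold change was -0.93 (SE 0.0612, 95% interval -1.07 to -0.78, edgeR adjusted p = 1.2e-05). Unlike the other members, its mRNA also carries a trace of the activity of its sensor, since IRE1 removes a piece of it. The tables list both forms, NM_013842 of 2264 bases and NM_001271730, which is 26 bases shorter. The excised piece is shown in capitals with 24 bases of coding sequence on either side, from exon 4 of the gene at chr11:5524255-5524328 (GRCm38, plus strand; the piece itself at chr11:5524279-5524304).
Xbp1: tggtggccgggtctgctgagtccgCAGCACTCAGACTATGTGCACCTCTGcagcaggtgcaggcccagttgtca
The piece was located by searching the NM_013842 transcript for CNGCAG, the letters around the cut sites, at a distance of 26 bases. Of 7 such sites, 2 pairs had this spacing, 1 in exon 1 and this one, which is the known site. As 26 is not a multiple of 3, its loss shifts the reading frame.

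The spliced form, NM_001271730, was at 15.42, 17.88 and 17.76 FPKM in LLC and at 9.20, 7.47 and 9.36 FPKM in LLC+BMSC. The unspliced form, NM_013842, was at 25.98, 25.10 and 27.21 FPKM in LLC and at 13.38, 16.39 and 13.25 FPKM in LLC+BMSC. Both forms were lower in every LLC+BMSC library than in any LLC library. Their proportion, in contrast, overlapped: the spliced form made up 37.2%, 41.6% and 39.5% of the Xbp1 FPKM in the LLC libraries and 40.7%, 31.3% and 41.4% in the LLC+BMSC libraries. The means were 39.5% ± 2.18 and 37.8% ± 5.65 (SD, n = 3), a difference of -1.63 percentage points (exact two-sided permutation p = 0.8). Leaving out 1 library at a time moved that difference between -3.42 and 1.62 points, and the positive value came without LLC+BMSC replicate 2. The forms differ by 26 bases, so that few fragments tell them apart and their split is an estimate of the authors' program with no counting interval of its own.

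**Figure D2:**
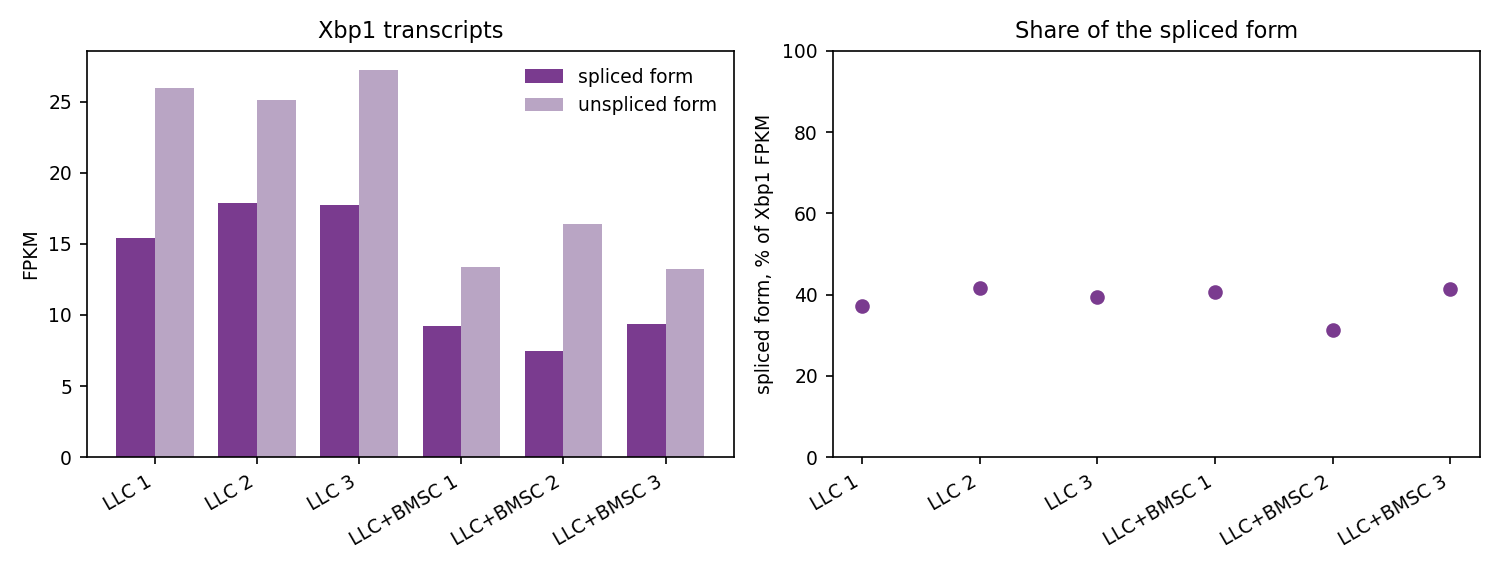
Left, FPKM of the spliced (dark) and unspliced (light) Xbp1 transcript in each of the 6 libraries; right, the spliced form as a percentage of the Xbp1 FPKM of the library. Both forms are lower in the 3 LLC+BMSC libraries, while the share lies between 37.2% and 41.6% in LLC and between 31.3% and 41.4% in LLC+BMSC.

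**Figure D3:**
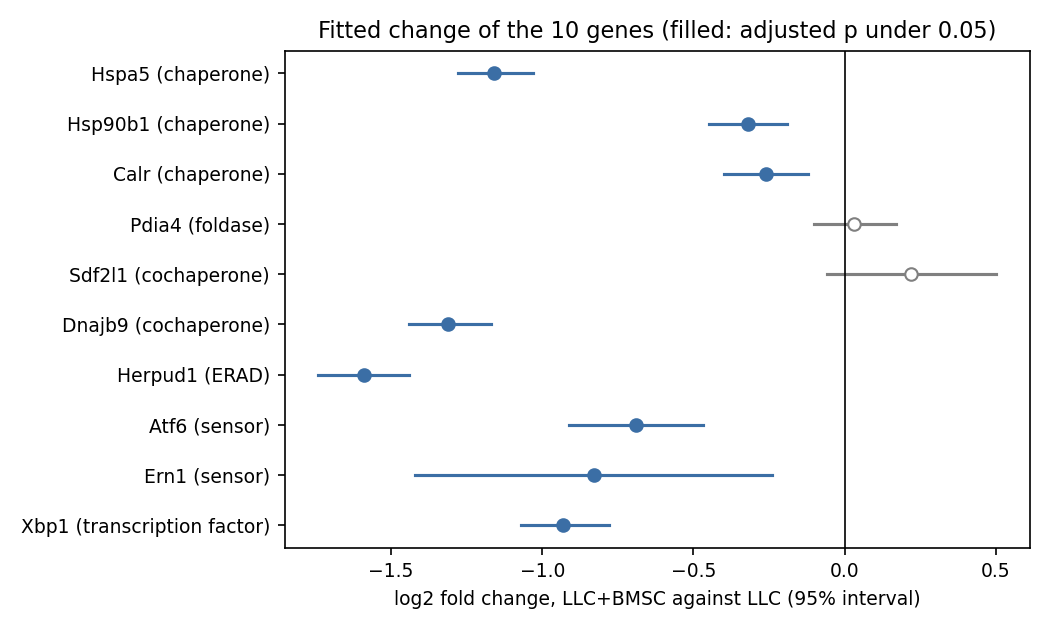
Log2 fold change of each gene, LLC+BMSC against LLC, with its 95% interval; filled points have an adjusted p under 0.05 in edgeR's quasi-likelihood test and the vertical line marks no change. Herpud1 (-1.59), Dnajb9 (-1.31) and Hspa5 (-1.16) lie farthest to the left, Ern1 has the widest interval, and Pdia4 and Sdf2l1 cross 0.

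Ordered by FPKM, the LLC group ran from Hspa5 over Hsp90b1, Calr, Herpud1, Dnajb9 and Pdia4 to Xbp1, Atf6, Ern1 and Sdf2l1. The ranges of neighbours did not overlap down to Xbp1, and those of Xbp1 and Atf6, of Atf6 and Ern1, and of Ern1 and Sdf2l1 did. In LLC+BMSC, Hsp90b1 and Hspa5 came first with overlapping ranges, followed by Calr and Pdia4, then Sdf2l1, Dnajb9, Herpud1 and Atf6 with ranges that overlapped from neighbour to neighbour, then Xbp1 and last Ern1. Pdia4 thus moved from the sixth place to the fourth and Sdf2l1 from the last to the fifth place, without passing the test themselves. These places were not corrected for the libraries' trends over transcript length. The span between the genes stayed wide in both groups, with no library below 352 FPKM for the chaperones Hspa5, Hsp90b1 and Calr and none above 80.6 FPKM for the other 7 genes.

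Other genes of the response were read from 6 lists of 96 genes, none of them members, of which 95 were in the tables and 94 were tested. Of these, 40 were lower and 21 higher in LLC+BMSC, around a median change of -0.12. Over all tested genes, 31.3% were lower and 31.5% higher, around a median of 0.01, and each list below is to be read beside these shares. All 6 lists were chosen with earlier results of these data known, so that their counts are a description and no test. The genes named below are those with the steepest calls of each list, the sensor Eif2ak3 and the PERK outputs Atf4 and Ddit3. Ppp1r15b, Pdia6, Dnajc3, Canx and Creld2 were added after their values were seen.

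Of the 8 tested genes listed as outputs of the PERK branch, 7 were lower and 0 higher, around a median of -1.71. A call with a log2 fold change of -1 or less was made for 6. Over all tested genes, 31.3% were lower, 31.5% higher and 7.17% called at -1 or less. Like the members and the other lists, this list was chosen with earlier results of these data known, so that its counts are a description and no test. Atf3, a stress-induced transcription factor, was at 89.58, 93.42 and 102 FPKM in LLC and at 11.08, 10.95 and 10.57 FPKM in LLC+BMSC, a log2 fold change of -3.15 (SE 0.0747, edgeR adjusted p = 1.05e-07). Ddit3, which codes for the death-promoting factor CHOP, was at 244, 244 and 294 FPKM in LLC and at 29.8, 30.9 and 31.8 FPKM in LLC+BMSC, a log2 fold change of -3.10 (SE 0.0938, edgeR adjusted p = 3.29e-07). Both fell further than any member. Atf4, the factor whose translation PERK raises, went from a mean of 640 ± 62.4 to 396 ± 11.6 FPKM (SD, n = 3), a log2 fold change of -0.71 (edgeR adjusted p = 0.000105). Ppp1r15b, a phosphatase subunit that acts against PERK, was the gene not called, at a log2 fold change of 0.13. It stands in this list for that part and is not known as a gene that PERK induces. Several of these genes are also known to answer to amino acid shortage through other kinases, so that the list is not particular to the ER.

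Among the sensors and the proteins that activate them, 1 of 9 tested genes was lower and 2 were higher, with a median of 0.03, and Ern2 was not listed. The shares over all tested genes were 31.3% lower and 31.5% higher. The third sensor, Eif2ak3 (PERK), was higher, at 8.05, 8.08 and 6.64 FPKM in LLC and 10.22, 10.36 and 10.19 FPKM in LLC+BMSC, a log2 fold change of 0.44 (SE 0.0835, edgeR adjusted p = 0.00257). Its mRNA thus changed in the other direction from Atf6 and Ern1, and from the outputs of its own branch. Mbtps1, the protease that makes the first cut in ATF6, was higher as well (log2 fold change 0.54), and Creb3, a transcription factor related to ATF6, was lower (-0.94).

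The other chaperones and foldases of the ER had 7 of 26 lower, 9 higher and a median of 0.10, shares near the 31.3% and 31.5% over all tested genes. Their summed level was 5311 to 5475 CPM in LLC and 5266 to 5526 CPM in LLC+BMSC. The sum over the 10 members was 5614 to 5713 CPM in LLC and 3484 to 3631 CPM in LLC+BMSC, with Hspa5 its largest part in LLC. The thiol oxidases Ero1a (from 76.4 to 147 FPKM, log2 fold change 0.93) and Ero1b (from 1.21 to 1.90 FPKM, 0.63) were the steepest that rose, and Fkbp2 (-0.62), a prolyl isomerase, and Manf (-0.54), an ER factor secreted under stress, those that fell the furthest. The change of Fkbp2 was -0.23 with the length trend removed. Further ERSE holders of this list did not move as one: Pdia6 (-0.45) and Dnajc3 (-0.30) were lower, Ero1b was higher, and Canx (0.08) and Creld2 (-0.09) passed in neither direction. With the length trend removed, Dnajc3 was at -0.49 and Creld2 at 0.13, called higher (edgeR adjusted p = 0.0156), and with the closest libraries summed Dnajc3 was not called (edgeR adjusted p = 0.0613).

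Of the ERAD genes, 9 of 21 tested were lower and 5 higher, with a median of -0.09, beside 31.3% and 31.5% of all tested genes. Ube2g2, a ubiquitin-conjugating enzyme of the ER membrane, fell from 78.3 to 31.8 FPKM (log2 fold change -1.32) and Derl1, part of the export channel, from 36.5 to 21.4 FPKM (-0.80). Edem2, which trims sugars of proteins bound for degradation, was higher (0.46), as was Aup1 (0.31, and 0.48 with the length trend removed), which recruits Ube2g2; the call of Aup1 was lost with the closest libraries summed (edgeR adjusted p = 0.0988). Of the genes that bring new chains into the ER, 14 of 24 were lower and 3 higher, with a median of -0.29. Over all tested genes the shares were 31.3% and 31.5%. The 14 include the similar genes Srp54a, Srp54b and Srp54c. Their estimated counts were not whole in any of the 6 libraries, so that they may share reads and are not separate evidence. Sec62 (-0.60), of the channel for small proteins, and Srp14 (-0.59), of the signal recognition particle, were the lowest, and Sec63 (0.40) and Ssr1 (0.40) the highest. The change of Srp14 was -0.24 and that of Sec63 0.17 with the length trend removed, and Ssr1 was then at 0.04 and no longer called (edgeR adjusted p = 0.78). The mRNAs that IRE1 is known to degrade were called at about the shares of all tested genes (31.3% lower and 31.5% higher), with 2 of 6 lower (Bloc1s1, -0.62, and -0.20 with the length trend removed; Hgsnat, -0.24) and 2 higher (Pdgfrb, 0.41, and 0.21 with the length trend removed; Col6a1, 0.30), and a median of 0.06. Hgsnat was no longer called with the closest libraries summed (edgeR adjusted p = 0.076), nor Pdgfrb, at 0.36, without LLC+BMSC replicate 1 (edgeR adjusted p = 0.0511).

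**Figure D4:**
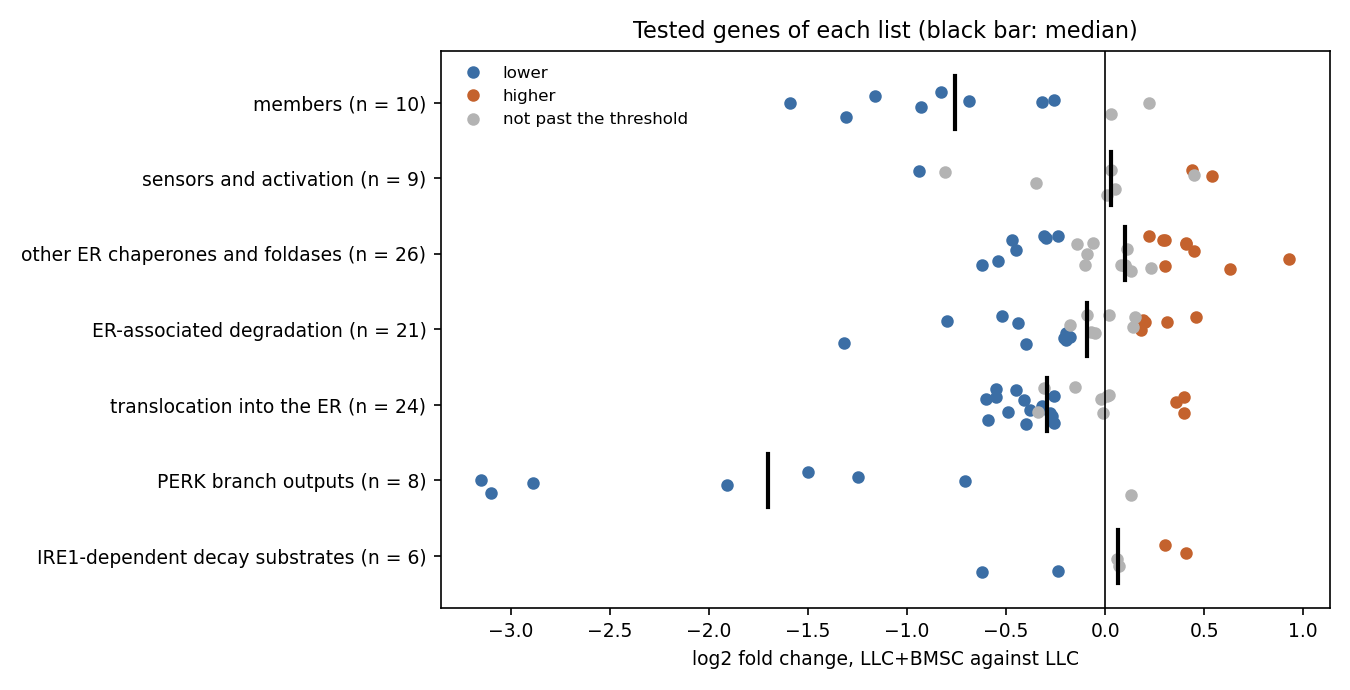
Log2 fold change, LLC+BMSC against LLC, of every tested gene of the 10 members and of the 6 other lists; a point is a gene, coloured by its call in edgeR's quasi-likelihood test, and the black bar is the median of the list. The PERK outputs (median -1.71) and the members (-0.76) lie to the left, and the other chaperones (0.10) and the decay substrates (0.06) spread around 0.

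Over all promoters, the elements were read against the same fit. Of the 37 genes with an ERSE, 18 were tested, 6 of them lower and 3 higher, around a median change of -0.13, a share near the 31.3% of all tested genes that were lower. Of the 12 with an ERSE-II, 8 were tested, 6 lower and 0 higher, with a median of -0.46. Of those with a UPRE, 95 were tested, 27 lower and 24 higher, with a median of 0.02, neither share above that over all tested genes. These counts include the members themselves, and Dnajb9, Xbp1 and Ern1, which were lower, held none of the 3 elements in the window.

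Among tested genes that have a symbol and average 100 normalized counts or more, the 3 whose log2 CPM followed that of Hspa5 most closely over the 6 libraries were Tti2, Crot and Aagab, with a Pearson r of 0.9998, 0.9997 and 0.9996 and log2 fold changes of -0.65, -0.43 and -0.93. As the libraries fall into 2 groups, 2583 of 10594 such genes had an r above 0.9, and the values are a description only.

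Markers of other cells moved with the groups, and their lists too were chosen with earlier results of these data known. All 7 tested neutrophil markers were higher in LLC+BMSC, with Retnlg not listed. The sum of the neutrophil list was 0.479 to 0.780 CPM in LLC and 21.2 to 23.8 CPM in LLC+BMSC. The defining Ly6g was too low to be tested, at means of 0.08 FPKM in LLC and 0.047 FPKM in LLC+BMSC with overlapping groups. Elane, also untested, had means of 0 and 0.23 FPKM. All 7 tested markers of mesenchymal stromal cells were higher, at 241 to 288 CPM and 624 to 651 CPM, most of it Col3a1, with Thy1 at 3 counts or fewer. Of the macrophage markers, 5 of 6 were higher and 1 lower, at 9.66 to 11.8 CPM and 18.4 to 19.0 CPM, with C1qa, C1qb and C1qc at 3 counts or fewer. The lower one was Cd68, at means of 5.55 FPKM in LLC and 3.03 FPKM in LLC+BMSC (log2 fold change -0.89). Among markers of B cells and plasma cells, the latter known for a strong unfolded protein response, 1 gene was tested and was higher, at sums of 0.614 to 0.720 CPM and 0.764 to 1.21 CPM, and the defining Jchain was at 3 counts or fewer. No marker of T and NK cells was tested (0.327 to 0.390 CPM and 0.225 to 0.336 CPM), and of 3 endothelial markers 1 was lower (3.01 to 3.96 CPM and 2.52 to 3.25 CPM). The part of such cells in the members' values was not tested, and in bulk samples fewer cells with a transcript and less of it per cell cannot be told apart. Of the lung epithelium markers, Krt8 stood at 95.3 FPKM in LLC and 110 FPKM in LLC+BMSC, but the defining Epcam, Cdh1 and Nkx2-1 were at or near 0 in both groups. That list had 2 of 10 markers tested, both higher, at 158 to 179 CPM and 188 to 196 CPM. The red fluorescent protein itself was not analysed here.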

How the data were processed

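Gene expression was read in sorted LLC-RFP cells, 3 libraries per group, grouped and numbered by the sample labels. The authors deposited estimated counts and FPKM per gene and per transcript, with lengths in bases, and a table of FPKM for the series whose values equalled those of the single libraries. Estimated counts share reads among similar transcripts and need not be whole, as 21.9% to 23.2% of genes in a library were not, but the gene counts of the 10 members were whole. The submitters' processing notes name HISAT, StringTie, Cufflinks, GATK and the build mm8, with no role. The tables give RefSeq transcripts and no coordinates. The paper names the BGISEQ-500 and the labels Illumina protocols.

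Counts on genes summed to 33476347 to 46189113 fragments a library. Closeness of replicates was checked by a chi-square per gene. Its median over the value for sampling noise was 1.96 for LLC replicates 1 and 2, 1.68 for LLC+BMSC replicates 2 and 3, and 4.85 to 13.1 for other pairs. All 6 were kept as separate by choice, since the check cannot tell whether the close libraries share a source. Summing the closest libraries of each group was 1 of the alternatives. Counts were rounded and tested with edgeR 4.0.16 in R 4.3.3 (TMM, filterByExpr, quasi-likelihood test, no covariate), with Benjamini-Hochberg adjustment over the 13353 tested genes. The standard error is the log2 fold change divided by the root of the F statistic. CPM sums use the effective library sizes. The chain was also run on simulated counts. These had far fewer changed genes than were called here, and no length trends or close replicates, so that the run checks the code only. DESeq2 1.42.0, limma 3.58.1 and changes of scaling, filter, pseudocount, length and GC trends, block and libraries served as alternatives.

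The members, the 6 pathway lists (sensors, chaperones and foldases, ERAD, translocation, PERK outputs, decay substrates) and the 7 marker lists were chosen with earlier results of these data known. All members were named, and of each list up to 2 called genes at either end that averaged 100 normalized counts or more, besides Eif2ak3, Atf4 and Ddit3. Ppp1r15b, the ERSE holders that are no members and the marker genes were named after their values were seen. Symbols stored as dates (27) were restored from gene identifiers. Promoters came from RefSeq (GRCm38.p6) and gene positions and the Xbp1 window from GENCODE M21 (GRCm38), neither being the build of the notes. Columns of other samples were 0.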

Additional observations from a re-analysis of the deposited data

How the results depend on the processing

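The log2 fold change of every member kept its sign under all 18 alternatives. Hspa5 ranged from -1.19 to -1.12, Herpud1 from -1.63 to -1.44, Dnajb9 from -1.34 to -1.18, Xbp1 from -0.96 to -0.83, Atf6 from -0.96 to -0.62 and Hsp90b1 from -0.35 to -0.29, and these 6 were called lower in each. Ern1 (-1.10 to -0.63) lost its call in 7 of the 18, and Calr (-0.29 to -0.12) in 1. Pdia4 (0.01 to 0.09) was never called. Sdf2l1 (0.13 to 0.50) was the 1 member called higher with the length trend removed, with the length and GC trends removed (added after seeing the data) and without LLC replicate 3, against 0 members otherwise. The members called lower were 8, and 7 or 8 with a library left out. They were 3 when a log2 fold change of at least 1 was also required, which left 7 lower and 0 higher of the other response genes in place of 40 and 21. With the closest libraries summed, 6 members were lower, and 27 of the other genes were lower and 13 higher. Of all 13820 genes tested in that setting, 3301 were lower and 3364 higher. The median ratio of the members' FPKM, LLC+BMSC over LLC, was 0.601, and 0.567 to 0.650 with a library left out. Creld2 turned to 0.13 with the length trend and to 0.12 with the length and GC trends removed (edgeR adjusted p = 0.0156 and 0.0219). Ero1b was at 0.39 with limma on log2(FPKM + 1). The cause of these changes was not tested beyond the construction of each alternative. Scaling moved the median of all genes to between -0.02 and 0.03, which bears on changes as small as that of Pdia4.

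The groups share replicate numbers, but the numbers did not pair the libraries: deviations of same-numbered libraries correlated at 0.0762, -0.106 and 0.0572, and 2 of 6 libraries matched their own number best. With the replicate block, 8 members were lower and 0 higher, 38 and 19 of the other response genes and 4058 and 4161 of all genes, and no member's call changed.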
